A study of Mus musculus with 12 samples.

Results

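Immediate early and activity-dependent genes are the genes that neurons transcribe within minutes to hours of synaptic activity. The 39 genes described here were taken by symbol from a list that fits a cortical neuron, drawn up with earlier results on these tables known, and 38 of them were among the 15191 genes of the authors' deposited gene table. Atf3, which encodes a stress-induced transcription factor, was the other, and its level was not analysed here. By role, the 38 were 19 transcription factors and nuclear regulators, 4 MAP kinase phosphatases and 15 effectors.

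The study compared 6 frontal cortices of male Adar2-/- mice with 6 of male Adar2+/+ litter mates, all on C57BL/6, and the labels do not name the mouse behind each library. Both groups were also homozygous for the Gria2R allele, whose genomic sequence already encodes the arginine that ADAR2 otherwise writes into this AMPA receptor mRNA by editing. Adar2 is the older name of Adarb1, the gene of an enzyme that converts adenosine to inosine in double-stranded RNA. Age, time of day, housing and stimulation are not in the labels used here for either group.

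Calcium entering an active neuron switches on CaM kinases, protein kinase A and the MAP kinase cascade. These act on factors already bound at promoters, among them CREB and the serum response factor, so the first wave of transcription needs no new protein. The first wave includes transcription factors of the FOS, EGR and NR4A families, which drive later genes, and effectors such as Arc and Homer1 that act at the synapse itself. MAP kinase phosphatases of the DUSP family are induced with them and switch the cascade off again. In the cortex of an unstimulated mouse these mRNAs follow recent waking activity and handling, and they can differ from animal to animal.

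The values are the mean normalized count of each gene over both conditions, the ratio between the conditions and its p-value, and exon bin ratios, all as the authors gave them. The tables hold no value for a single library, so the spread between libraries enters only through the deposited p, and overlap between the groups could not be read. The gene table heads its conditions A and B without naming a genotype, and no genotype is attached here to a difference of mRNA level, which is always written as log2 of A over B. Adarb1 itself had a mean count of 4181 and was 4.62-fold lower in condition A (adjusted p = 3.06e-126) in the authors' deposited table. Tissue was checked on markers: all 9 markers of cortical excitatory neurons were in the gene table, from 384 for Fezf2 to 34566 for Camk2a in mean count. In bulk tissue, fewer cells of a type and less RNA per cell cannot be told apart.

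The promoters come first, since these genes are known for the elements that CREB binds. RefSeq promoter windows on GRCm38.p6, each from 250 bases before to 50 bases after an annotated start, were found for 29 of the 39 genes, in 46 windows. The genes without one were Arc, Dusp4, Egr1, Egr3, Ier2, Klf10, Nptx2, Sik1, Trib1 and Vgf. The full cAMP response element, TGACGTCA, was in a window of 3 of the 29 genes (10.3%), Btg2, Dusp1 and Plk2, and in a window of 2.03% of all 27025 genes of that table. Of those 3 genes, Btg2 and Dusp1 were among the 7 described below as lowest in p, and Plk2 was not. Arc, Klf10 and Trib1, also among the 7, had no window to search, and a link between element and difference was not tested. The shorter core TGACG, which every full element also contains, was in a window of 22 of the 29 genes (75.9%) and of 23.0% of all genes. Both strands were searched, and genes with several windows had more chances to match. A match describes the letters only.

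The 3 full elements, in capitals, are shown with the bases around them, all upstream of the start and read 5′ to 3′ on the gene's own strand. Homer1 is shown for its 3 copies of the core, also in capitals, in 80 bases that end at the start. The stretches lie at chr1:134079278-134079357 on the minus strand for Btg2, chr17:26508572-26508651 on the minus strand for Dusp1, chr13:110394946-110395025 on the plus strand for Plk2 and chr13:93303677-93303756 on the plus strand for Homer1.
Btg2: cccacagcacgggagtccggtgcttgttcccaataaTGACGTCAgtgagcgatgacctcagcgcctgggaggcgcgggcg
Dusp1: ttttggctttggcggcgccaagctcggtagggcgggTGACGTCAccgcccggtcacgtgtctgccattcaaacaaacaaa
Plk2: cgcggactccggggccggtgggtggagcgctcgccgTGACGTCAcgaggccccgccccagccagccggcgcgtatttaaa
Homer1: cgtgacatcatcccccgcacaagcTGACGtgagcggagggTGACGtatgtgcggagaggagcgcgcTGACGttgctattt

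The element begins 166 bases before the start in Btg2, 143 in Dusp1 and 62 in Plk2, and the cores in Homer1 begin 56, 40 and 14 bases before it. The CArG box bound by serum response factor was in a window of Dusp5 and Egr2 and of 1.81% of all genes. The EGR site GCGNGGGCG was in windows of 8 of the 29 genes, among them Btg2, Fosb and Nr4a1, and of 6.27% of all genes. The AP-1 site TGANTCA was in a window of 1, Bdnf, and of 8.97% of all genes.

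Most of the 38 measured genes were lower in condition A, and none of them passed the threshold over all genes. The ratio was below 1 for 27 of 38 (71.1%), where 47.1% of all listed genes were lower, and the median log2 difference of A over B was -0.15, where that of all listed genes was 0.01. No gene of the 38 had an adjusted p under 0.05 in the authors' deposited table, a threshold that 0.0197% of listed genes passed. An unadjusted p under 0.05 was found for 7 that were lower in A, Dusp1, Arc, Trib1, Btg2, Klf10, Dusp6 and Homer1, and for 0 that were higher. That is 18.4% of the 38, where 1.02% of all listed genes were lower and 0.843% were higher at that p.

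In size, 10 of the 38 (26.3%) were at least 1.2-fold lower in condition A and 0 were at least 1.2-fold higher. Of all listed genes 3.73% were at least 1.2-fold lower and 4.67% at least 1.2-fold higher. The log2 difference ran from -0.54 for Arc to 0.24 for Per1 in the authors' deposited table. Since earlier results were known when the list was drawn up, these counts describe the genes and are no independent test of a direction. The genes also share the upstream signals described above and can move together, so they are not replicates of a condition. How far they moved together between libraries could not be read.

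**Figure D1:**
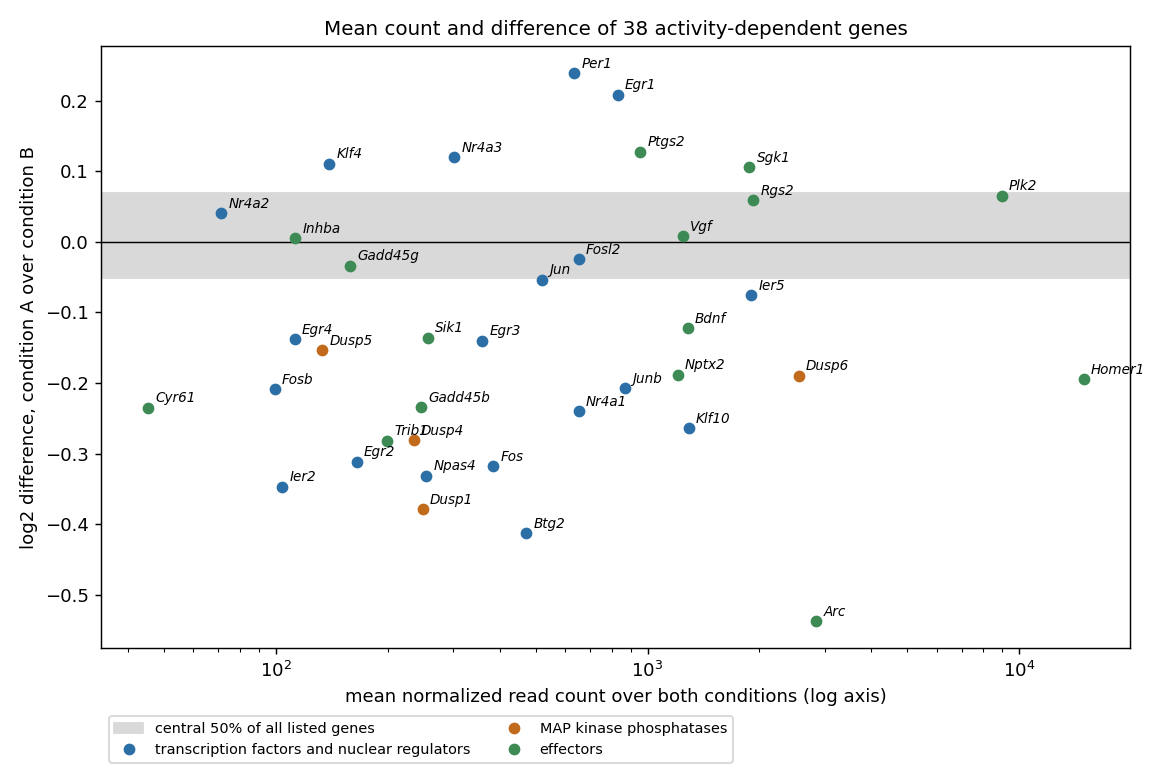
Mean normalized read count over both conditions (horizontal log axis) and log2 difference of condition A over condition B (vertical axis) of each of 38 activity-dependent genes, coloured by role. The grey band holds the central 50% of all listed genes. In 27 genes the point lies below 0, Arc is the lowest, and all 4 phosphatases lie below the band.

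Transcription factors and nuclear regulators were the largest group, and 14 of the 19 measured were lower in A (73.7%, beside 47.1% of all listed genes). Their median log2 difference was -0.14, at a median mean count of 384. Of the AP-1 family, whose FOS and JUN proteins pair to bind DNA, all 5 measured genes were lower in A. Fos had a mean count of 384 and a log2 difference of -0.32 (p = 0.0695) in the authors' deposited table. Its partner Junb, at a mean count of 869.9, had a log2 difference of -0.21 (p = 0.377) in the authors' deposited table. Fosb, which also gives rise to the long-lived shortened protein ΔFosB, had a mean count of 99.2 and a log2 difference of -0.21 (p = 0.373) in the authors' deposited table. Jun, at a mean count of 519, differed by -0.05, and Fosl2, at 652, by -0.02 on the log2 scale in the authors' deposited table. Within this family the difference was therefore largest for Fos and smallest for Fosl2.

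The EGR zinc finger factors did not point one way. Egr2 had a mean count of 165 and a log2 difference of -0.31 (p = 0.25 in the authors' deposited table). Egr3, at a mean count of 359, and Egr4, at 112, both had a log2 difference of -0.14 in the authors' deposited table. Egr1, a widely used marker of the family, was higher in A, with a mean count of 830.3 and a log2 difference of 0.21 (p = 0.345 in the authors' deposited table). Fos and Egr1, both used as marks of neuronal activity, thus lay on opposite sides of 0, and neither passed.

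The NR4A orphan nuclear receptors were split as well. Nr4a1 had a mean count of 653 and a log2 difference of -0.24 (p = 0.0873), while Nr4a3 had 302 and 0.12 (p = 0.508) in the authors' deposited table. Nr4a2 had a mean count of 71.3 and a log2 difference of 0.04 in the authors' deposited table. Npas4, a neuron-specific factor that responds to calcium entry and shapes inhibitory synapses, had a mean count of 254. Its log2 difference was -0.33 with p = 0.18 in the authors' deposited table. That was a larger difference than that of Nr4a1 with a larger p, so size and p did not rank these genes alike.

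Of the KLF factors, Klf10, known as an early gene induced by TGF-beta, had a mean count of 1292 (log2 difference -0.26, p = 0.0279, adjusted p = 1 in the authors' deposited table). Klf4, which is also expressed by blood vessel cells, had a mean count of 139 and a log2 difference of 0.11 (p = 0.886) in the authors' deposited table. Of the remaining nuclear regulators Btg2 had the largest difference, an antiproliferative protein that works with the mRNA deadenylase complex. At a mean count of 472 its log2 difference was -0.41, where the authors' deposited table gave p = 0.0263, or 1 after adjustment. Ier2, at a mean count of 104, had -0.35 (p = 0.118) and Ier5, at 1900.0, had -0.08 (p = 0.618) as log2 differences in the authors' deposited table. Per1, a repressor of the circadian clock that activity and glucocorticoids also induce, was higher in A, at a mean count of 635 and a log2 difference of 0.24 (p = 0.268 in the authors' deposited table).

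The 4 MAP kinase phosphatases were all lower in condition A, beside 47.1% of all listed genes, with a median log2 difference of -0.24. Dusp1, a nuclear phosphatase of p38, JNK and ERK, had a mean count of 248. Its log2 difference of -0.38 had the smallest p of the 38 genes in the authors' deposited table, 0.00104, or 0.971 after adjustment, and it ranked 21 among all listed genes by p. Dusp6, a cytoplasmic phosphatase selective for ERK, had a mean count of 2552 (log2 difference -0.19, p = 0.0456, adjusted p = 1 in the authors' deposited table). Dusp4 had a mean count of 235 and a log2 difference of -0.28 (p = 0.147) in the authors' deposited table. Dusp5, a nuclear ERK phosphatase, had a mean count of 133 and a log2 difference of -0.15 (p = 0.185) in the authors' deposited table. Dusp1 and Dusp6 thus had the smallest p of this group, and the difference was largest for Dusp1 and smallest for Dusp5.

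**Figure D2:**
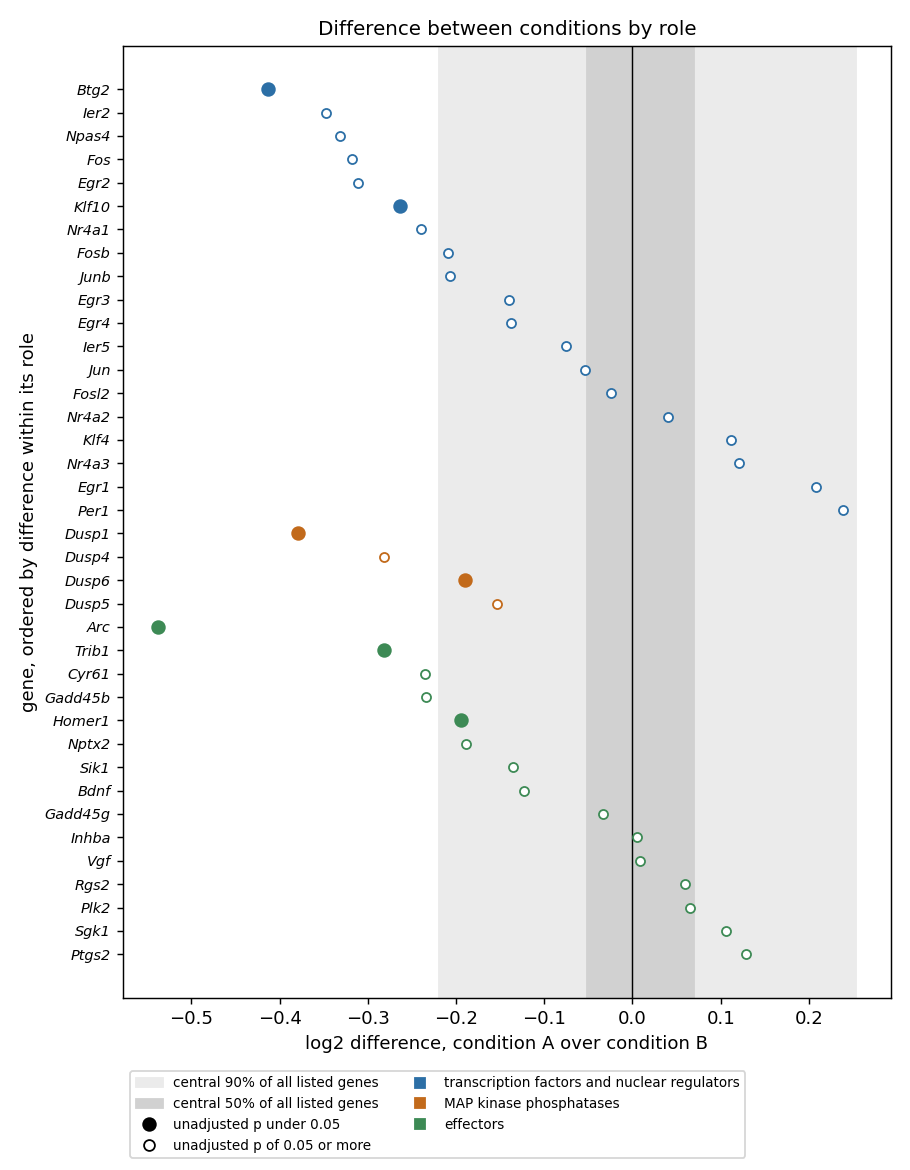
Log2 difference of condition A over condition B for each of the 38 genes, ordered within its role, with filled circles where the unadjusted p was under 0.05. Grey bands hold the central 50% and 90% of all 15191 listed genes. The 7 filled circles all lie below 0, and the highest gene, Per1 at 0.24, lies inside the wider band.

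Effectors were more mixed: 9 of 15 were lower in A (60%, beside 47.1% of all listed genes). At a median mean count of 1205, their median log2 difference was -0.12. That median was -0.078 over effectors with a mean count of at least 100, and -0.033 with Arc and Homer1 counted among the rapid genes, as members of the first wave. No other effector was moved, so the last value depends on the choice of these genes, both lower in A. Of the 4 that act at the synapse 3 were lower. Arc, which promotes the removal of AMPA receptors from the synapse, had the largest difference of all 38 genes. At a mean count of 2844 it was 1.45-fold lower in A (log2 difference -0.54, p = 0.00333, adjusted p = 1 in the authors' deposited table). Homer1, a scaffold of metabotropic glutamate receptors whose short form is induced by activity, had a mean count of 14903. Its log2 difference of -0.19 came with p = 0.0472 in the authors' deposited table, or 1 after adjustment. Nptx2, a secreted pentraxin that clusters AMPA receptors, had a mean count of 1205 and a log2 difference of -0.19 (p = 0.0678) in the authors' deposited table. Plk2, a kinase of homeostatic synaptic weakening, lay on the other side of 0, at a mean count of 8982 and a log2 difference of 0.07 (p = 0.342) in the authors' deposited table.

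Of 5 secreted and membrane signals 2 were lower and 3 higher in A. Bdnf, the neurotrophin gene, had a mean count of 1284 and a log2 difference of -0.12 (p = 0.241) in the authors' deposited table. The neuropeptide precursor Vgf, at a mean count of 1246, and the activin subunit gene Inhba, at 113, both had a log2 difference of 0.01 in the authors' deposited table. Ptgs2, which encodes cyclooxygenase 2, was higher in A, at a mean count of 954 and a log2 difference of 0.13 (p = 0.23) in the authors' deposited table. Cyr61, a matricellular protein also made by blood vessels, had the fewest reads of the 38 genes, with a mean count of 45.4 and a log2 difference of -0.23 (p = 0.272) in the authors' deposited table.

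Among intracellular signalling effectors Trib1, a pseudokinase that recruits a ubiquitin ligase, had a mean count of 199.7 (log2 difference -0.28, p = 0.0145, adjusted p = 1 in the authors' deposited table). Gadd45b, a stress-inducible gene linked to DNA demethylation, had a log2 difference of -0.23 at a mean count of 246 (p = 0.117) in the authors' deposited table. Its relative Gadd45g had -0.03 at a mean count of 159 (p = 0.977) in the authors' deposited table. Sik1, a kinase that restrains CREB coactivators, had -0.14 at a mean count of 256 (p = 0.186) in the authors' deposited table. The glucocorticoid-induced kinase gene Sgk1 was higher in A, at a mean count of 1878 and a log2 difference of 0.11 (p = 0.154), in the authors' deposited table. Rgs2, which shuts off Gq signalling, was too, at a mean count of 1921 and a log2 difference of 0.06 (p = 0.4), in the authors' deposited table.

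Levels between genes were set side by side per kilobase of exon. The length joined all exons annotated for a gene in GENCODE M21 on GRCm38, over all its transcripts. That annotation need not match the one the authors counted on. A gene with long annotated exons that are little used is placed lower by this choice. On this scale the highest mean counts per kilobase, over both conditions, were those of Plk2 (2000.0), Homer1 (1244), Arc (930.2) and Dusp6 (815). The lowest were Fosb (15.9), Nr4a2 (17.6) and Inhba (17.6). Whether neighbours in this order differ in level beyond their spread was not tested.

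Genes around this program were read from lists of the same pathway. Of 40 other activity-regulated genes 39 were measured, and 28 were lower in A (71.8%, beside 47.1% of all listed genes), with a median log2 difference of -0.05. None passed over all genes, and 3 (7.69%, beside 1.02% of all listed genes) had an unadjusted p under 0.05 and were lower in A, with 0 higher at that p. These were Spry2, an inhibitor of receptor tyrosine kinase signalling (-0.19, p = 0.0234), Pcsk1, a convertase of neuropeptide precursors (-0.20, p = 0.0433), and Cdkn1a, a cell cycle inhibitor (-0.23, p = 0.0477), as log2 differences in the authors' deposited table. The upstream machinery gave 26 lower and 31 higher of 57 measured, with a median of 0.02. None of it passed over all genes. Its smallest p-values were those of the CaM kinase gene Camk4 (log2 difference -0.18, p = 0.0185), of Elk1, a partner of serum response factor (0.27, p = 0.0354), and of the ERK1 gene Mapk3 (0.17, p = 0.059) in the authors' deposited table.

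Lists of genes that respond to stress were read beside them. Of 14 measured glucocorticoid-responsive genes 8 were lower in A (57.1%, beside 47.1% of all listed genes) and 6 higher. Their median log2 difference was -0.02. Lowest in p there were those of the metallothionein genes Mt1 (log2 difference 0.33, p = 2.07e-04) and Mt2 (0.34, p = 0.0343), both higher in A, and of Cdkn1a again, in the authors' deposited table. Of 10 heat shock and stress genes 8 were lower in A (80%, beside 47.1% of all listed genes), with a median of -0.03. That share was above the 71.1% of the 38 activity-dependent genes. The authors' deposited table had no gene of the stress list at an unadjusted p under 0.05. Hspb1, a small heat shock protein gene (log2 difference 0.27, p = 0.146), Ddit3, a factor of the unfolded protein response (-0.15, p = 0.147), and the cochaperone gene Dnajb1 (0.03, p = 0.493) had the smallest p of that list in the authors' deposited table. No gene of either list passed over all genes.

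**Figure D3:**
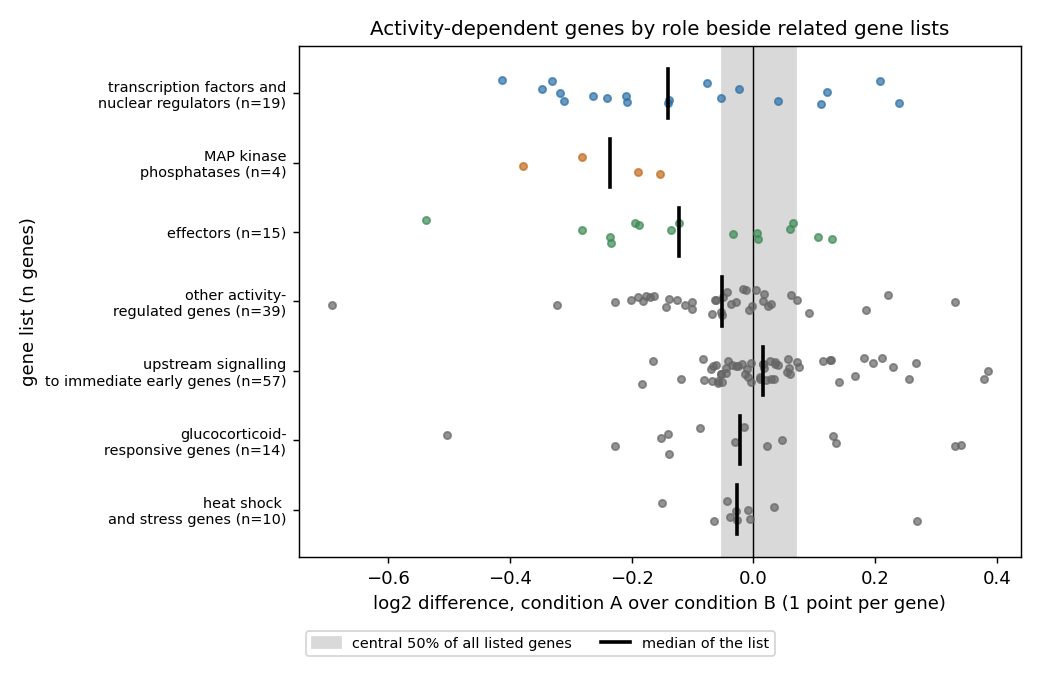
Log2 difference of condition A over condition B for the activity-dependent genes by role and for 4 related lists, with 1 point per gene, a black line at each median and a grey band for the central 50% of all listed genes. The medians of the 3 roles, -0.14, -0.24 and -0.12, lie left of the band, which starts at -0.05; with Arc and Homer1 counted among the rapid genes, that of the effectors is -0.033 and lies inside it. The upstream signalling median of 0.02 lies inside it.

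Markers of cell types were read in the same way. All 7 interneuron markers were higher in A, beside 8031 of all 15191 listed genes. Their median log2 difference was 0.13, and none had an unadjusted p under 0.05. Of the excitatory neuron markers 6 of 9 were higher, with a median of 0.13. Of 7 measured striatal markers 4 were higher, with a median of 0.19, and Ppp1r1b, singled out after its value was seen, had p = 0.00242 (log2 difference 0.30) in the authors' deposited table. Drd2, a defining striatal receptor, was not analysed here. The median log2 difference was 0.04 for 6 astrocyte markers, 0.05 for 6 microglia markers, -0.01 for 5 oligodendrocyte markers and -0.02 for 8 markers of blood vessels. For 7 blood markers it was 0.04, and the neutrophil genes S100a8 and S100a9, also singled out afterwards, had log2 differences of -1.27 and -1.39 (p = 0.342 and 0.242) at mean counts of 29.9 and 43.1 in the authors' deposited table. The part of cell makeup in the lower activity-dependent genes was not tested.

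Exon bins were compared next, in a table whose header names its groups Con and ADAR, read here as control and Adar2 knockout. Each value is a ratio of the use of 1 exon piece relative to the rest of its gene, given here as Adar2 over control, so it does not carry the level of the whole gene. All 38 genes had a bin, 208 bins in all, and 205 bins of 35 genes had a p-value. The single bins of Ier2, Ier5 and Junb had none. No bin passed an adjusted p under 0.05 in the authors' deposited table, which 0.00738% of all 149137 bins did. An unadjusted p under 0.05 was found for 4 of the 205 bins (1.95%), where 1.67% of all bins had one. Within 1.2-fold were 95.6% of these bins and 94.8% of all bins. By these counts the exon use of the activity-dependent genes was near the background.

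Those 4 bins lay in 3 genes. Bin E009 of Homer1 had a log2 ratio of -0.49 (p = 0.00883, mean count 58.1) in the authors' deposited table. Bins E023 and E024 of Per1 had -0.51 and -0.54 (p = 0.0426 and 0.0362), with mean counts of 21.6 and 21.1, near the lowest that the table lists, in the authors' deposited table. Bin E002 of Nptx2 was higher in Adar2, at 0.23 (p = 0.039) in the authors' deposited table. Among the phosphatases, Dusp1 bin E002 had the smallest p, 0.076, at a log2 ratio of 0.21 in the authors' deposited table. Bdnf, known for its alternative first exons, had 4 listed bins, and their smallest p was 0.471 in the authors' deposited table. The single bin of Fosb had p = 0.344 in the authors' deposited table.

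The bins of Homer1 were read in their listed order, since the gene makes a short activity-induced form and longer constitutive forms. Of the 17 listed bins from E001 to E018, 14 were lower in Adar2, with a median log2 ratio of -0.04. Of the 10 listed bins from E019 to E029, all 10 were higher, with a median of 0.05. The heavily counted bin E015, with a mean count of 3828, had -0.17 (p = 0.119), and E018 had -0.37 (p = 0.114) in the authors' deposited table. The division after E018 was chosen after the values were seen, and bins of 1 gene are relative to each other, so a lower set implies a higher one. The table gives bin numbers and no coordinates, so these bins were not assigned to the short or the long form.

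**Figure D4:**
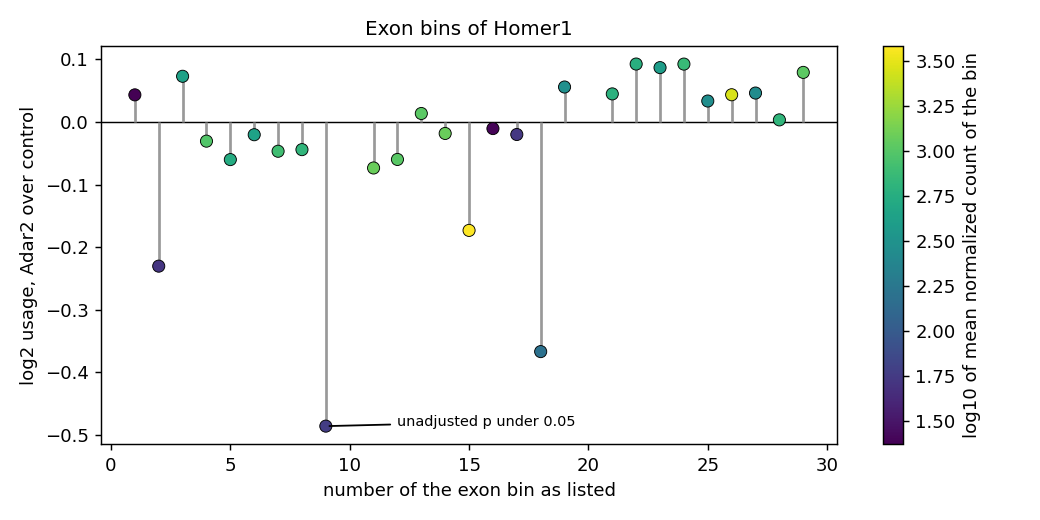
Log2 usage ratio of Adar2 over control for the 27 listed Homer1 exon bins in order of bin number, coloured by the log10 of the bin's mean normalized count. Bins from E019 on all lie above 0, at no more than 0.09, while E009, E018 and E015 lie below it, and E009 alone had an unadjusted p under 0.05.

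RNA editing was compared by the authors at 143 listed sites in 95 genes, and 0 of these sites lay in any of the 39 activity-dependent genes.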

How the data were processed

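Total RNA of 12 frontal cortices, 6 of each genotype by the series' design text, was extracted with Trizol and made into stranded libraries after removal of ribosomal RNA, per the labels' protocols. Per the submitters' processing notes, the tools were SAMtools 01.19.0, TopHat2 2.0.6, Bowtie2 2.02.0, DESeq and HTSeq, and the build was mm9. Their roles, and whether counting used strand, were not found in the labels or headers. The 3 deposited tables hold the authors' comparisons. Per the file headers, the gene table gives a mean normalized count of both conditions (the signal that DESeq writes), the ratio of condition B over A and its log2 value, with p-values before and after adjustment. Its 2 columns of condition means name no genotype and were left unused, so no mean of a single condition is given. The exon table gives the deposited log2 ratio, p-values, a mean count and a dispersion score per bin, which was not used. The editing table gives the deposited percent of edited reads and another column, the position, and was used only to look for the genes described. Depth per library is unknown, and no interval or SD was computed.

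The ratio was turned to A over B on the log2 scale. Genes were found by symbol, and exon bins by Ensembl ID, 38 of 39 IDs by symbol and Cyr61 through its RefSeq synonym Ccn1. Counts and medians were set beside those of all listed genes, whose lowest mean count was 15.01, and no list was tested. The formula used for the adjustment over listed rows alone was checked on simulated p-values, which does not test the choice of those rows. Tools were Python 3.11.15 and pandas 2.3.3. The genes and lists were chosen with earlier results of these data known. By rule, every gene of the list was named, with exon bins at an unadjusted p under 0.05, the smallest p of each role, and the 3 smallest p of related lists; promoter stretches followed a full element or an unadjusted p under 0.05, and Dusp6, with neither the full element nor its core, is not shown. The sample labels do not name the mouse behind each library, and if libraries shared a mouse, the deposited p-values would measure only the spread between libraries.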

Additional observations from a re-analysis of the deposited data

How the results depend on the processing

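No gene of the list passed at an adjusted p under 0.1, when adjusted over the listed genes alone or at a mean count of at least 100, and no exon bin did under the corresponding settings, with a bin mean count of at least 50. The count of genes lower in condition A was 28 relative to the median of all genes, 25 at a mean count of at least 100 and 21 at 1.1-fold or more, against 27. The 25 were 71.4% of the genes of the list with that mean count, where 46.5% of all listed genes with it were lower. At an unadjusted p under 0.01, 2 genes were left in place of 7, Dusp1 and Arc, and 1 exon bin in place of 4. The shares of all listed genes and bins at that p were not computed, so these counts have no background beside them. At 1.1-fold, 21 genes were lower in place of 10 at 1.2-fold, a threshold tried after the data were seen. At least 1.1-fold higher were 2 genes of the list. Of all 15191 listed genes, 1412 were at least 1.1-fold lower and 1915 at least 1.1-fold higher. With Arc and Homer1 counted among the rapid genes, the median log2 difference of the rapid genes was -0.19 in place of -0.14 and that of the effectors -0.033 in place of -0.12, since 2 of the lower effectors change sides. Other medians by role moved by less than 0.05 and kept their sign with a mean in place of a median and with a count minimum. A pseudocount on the condition means and ratios of summed condition means were not run, since these means were not used. No paired analysis was possible because the tables hold no values per library, and for the same reason no library could be left out.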

Other observations

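Of the 19 with the lower mean counts 15 were lower in condition A, with a median log2 difference of -0.21, and of the 19 with the higher mean counts 12 were, with a median of -0.08. An unadjusted p under 0.05 was found for 2 of the former and 5 of the latter, Arc among them. The shares of all listed genes in the same count ranges were not computed, so these counts are not read as a difference between the 2 parts. Of the genes with the core TGACG of the cAMP response element in a promoter window, 13 of 21 were lower in A, with a median of -0.15. Of those with a window but without the core, 6 of 7 were lower, with a median of -0.05. Count and median thus pointed in different ways, and genes without a window, Arc among them, were in neither part. Neither division was tested.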
